A study of Rattus norvegicus with 10 samples.

Results

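The genes described here are 10 genes that mark the pericentral zone of the liver lobule or answer to Wnt signalling: Glul, Slc1a2, Rhbg, Oat, Lect2, Tbx3, Axin2, Lgr5, Rnf43 and Ctnnb1. They were taken from the deposited liver arrays by the accession of each probe, and all 10 were found among the 13438 genes that obtained a symbol. They were read by 13 of the 40945 probes tested, since Glul, Oat and Ctnnb1 had 2 probes each. For these 3 genes the probe with the higher mean signal over the 10 arrays stands for the gene, and the second probe is described beside it. The study asked how the liver of male Wistar rats responds to total-body irradiation (TBI), and whether MASM, a derivative of the plant alkaloid matrine, alters that response. Control rats (n = 3) were not irradiated, TBI rats (n = 3) received 6.5 Gy from a cobalt source, and MASM + TBI rats (n = 4) received the same dose after 30 mg/kg MASM by gavage on each of 3 days. Livers were taken 24 h after irradiation, and RNA of each rat was hybridised to an array of its own. No rats given MASM without irradiation are among the arrays, so MASM could be compared in irradiated rats only, and the ages of the rats are not given in the sources used here.

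Blood crosses the liver lobule from the portal tract to the central vein, and hepatocytes along this path divide the work between them. The endothelium of the central vein releases Wnt ligands and R-spondins, which stabilise beta-catenin in the nearest hepatocytes. Beta-catenin then acts with DNA-binding proteins of the TCF/LEF family and switches on the pericentral programme, whose hallmark is the capture of ammonia in glutamine. The same signal induces genes that report or restrain it, such as Axin2, Lgr5 and Rnf43.

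The promoter windows of the genes are shown because several of these genes are known beta-catenin targets and because some of them varied together across the rats. RefSeq gave windows of 300 bases (250 before the annotated start and 50 after it, build GRCr8) for 8 of the 10 genes, with 2 starts each for Glul and Slc1a2. Lgr5 and Tbx3 had no entry. The windows were searched on both strands for CTTTGAT, a core of the TCF/LEF site, which reads ATCAAAG on the other strand. It occurred in a window of 4 genes, Glul, Slc1a2, Axin2 and Lect2, with 1 match each. Of all 27457 genes with windows, 3.95% held the motif in at least 1 of them. The shorter core CTTTGA, also searched, occurred in windows of the same 4 genes and of 17.1% of all genes. The second window of Glul and the first of Slc1a2 held no CTTTGAT. The matches lay 230 bases before the first of the annotated starts of Glul, 189 bases before the second start of Slc1a2, 132 before that of Axin2 and 68 before that of Lect2. A match describes the letters only, and binding was not measured. The 4 windows with a match follow with that of Rhbg, which held none and whose signal varied with that of Glul, with the motif in capitals and the gene's own strand read 5′ to 3′.
Glul, chr13:68519250-68519549, plus strand: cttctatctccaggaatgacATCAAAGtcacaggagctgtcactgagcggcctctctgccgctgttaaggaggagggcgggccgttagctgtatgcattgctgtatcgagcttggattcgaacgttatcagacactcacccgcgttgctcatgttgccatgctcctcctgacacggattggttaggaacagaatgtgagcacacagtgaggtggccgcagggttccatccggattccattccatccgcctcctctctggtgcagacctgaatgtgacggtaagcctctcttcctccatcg
Slc1a2, chr3:109507697-109507996, plus strand: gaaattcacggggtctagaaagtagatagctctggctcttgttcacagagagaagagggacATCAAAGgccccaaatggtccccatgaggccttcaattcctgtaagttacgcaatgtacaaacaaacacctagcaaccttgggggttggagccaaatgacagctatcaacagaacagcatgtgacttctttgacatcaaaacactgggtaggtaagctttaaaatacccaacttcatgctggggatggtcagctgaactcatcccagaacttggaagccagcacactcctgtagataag
Axin2, chr10:94398535-94398834, plus strand: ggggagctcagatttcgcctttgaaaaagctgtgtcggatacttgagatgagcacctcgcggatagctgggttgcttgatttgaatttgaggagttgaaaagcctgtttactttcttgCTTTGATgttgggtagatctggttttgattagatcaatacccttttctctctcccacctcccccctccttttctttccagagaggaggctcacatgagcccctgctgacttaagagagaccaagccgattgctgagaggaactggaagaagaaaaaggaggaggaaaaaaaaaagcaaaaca
Lect2, chr17:8049784-8050083, plus strand: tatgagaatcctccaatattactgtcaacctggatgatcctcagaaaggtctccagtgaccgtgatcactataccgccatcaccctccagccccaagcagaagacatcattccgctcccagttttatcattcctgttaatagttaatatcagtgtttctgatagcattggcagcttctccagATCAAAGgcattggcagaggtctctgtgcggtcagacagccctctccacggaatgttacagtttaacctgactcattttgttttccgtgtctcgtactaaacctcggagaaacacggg
Rhbg, chr2:176015100-176015399, minus strand: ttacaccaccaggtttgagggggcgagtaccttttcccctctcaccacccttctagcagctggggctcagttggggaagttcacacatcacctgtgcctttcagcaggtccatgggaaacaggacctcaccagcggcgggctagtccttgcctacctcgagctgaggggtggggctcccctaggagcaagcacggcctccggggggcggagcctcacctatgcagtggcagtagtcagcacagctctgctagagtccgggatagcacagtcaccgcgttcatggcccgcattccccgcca

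Values are log2 signals after quantile normalization, a difference of 1 being a 2-fold change, and levels are compared between rats for 1 probe at a time. Of the spots, 57.2% to 59.9% were well above background on control arrays, 64.1% to 70.1% on TBI arrays and 56.2% to 60.2% on MASM + TBI arrays. The control arrays lay on slide 1 with the array of MASM + TBI rat 3, the TBI arrays on slide 2, and the other MASM + TBI arrays on slide 3. No other group had an array on the TBI slide, so slide and group cannot be told apart for TBI against control or for MASM + TBI against TBI. A heatmap of the study names the arrays labelled control as TBI and the reverse, while the column names of its table of fold changes follow the labels, and the groups used here are those of the labels. The mean of 6 hepatocyte markers, which identify the tissue, was 16.07 to 16.30 on all 10 arrays. That of 5 lymphocyte markers, which are radiosensitive cells, was 5.15 to 5.27 in the rats labelled control, 3.19 to 3.53 in those labelled TBI and 3.26 to 3.56 in those labelled MASM + TBI.

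In TBI rats 9 of the 10 genes had a higher mean than in control rats, and Lect2 had a lower one. For Ctnnb1 this holds for the brighter probe only. The median of the 10 estimated log2 fold changes was 0.49, against -0.03 over all probes, of which 45.6% were positive. The estimates ran from 1.20 for Lgr5, 0.86 for Rnf43 and 0.70 for Tbx3 down to -0.29 for Lect2. None of the 10 genes passed an adjusted p of 0.05 in the limma fit, which 5.63% of all probes did. At an unadjusted p under 0.05 stood 2 genes, Lgr5 and Rhbg, where 23.5% of all probes stood. Lgr5 alone met the study's criterion, which joins an unadjusted p under 0.05 to a change of 1.5-fold or more and which 12.6% of probes met, and it was also the only gene whose TBI rats all lay beyond the control rats, against 30.3% of probes. The methods' t-test, run with unequal variances, gave 0 genes after adjustment, which 10 of all probes passed. It gave 0 genes at the study's criterion, which 7.08% of probes met. With only 10 genes, counts of 0 to 2 do not tell their share apart from that of the whole array.

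In MASM + TBI rats 8 of the 10 genes had a higher mean than in control rats, with a median estimate of 0.33 against 0.0024 over all probes, of which 51.1% were positive. Lect2 and Ctnnb1 were the exceptions. Again 0 genes passed the adjusted p in limma, against 2.99% of probes, and 1 gene, Lgr5, had an unadjusted p under 0.05, against 17% of probes. Lgr5 also met the study's criterion, as did 8.06% of probes. The groups did not overlap for 2 genes, Glul and Slc1a2, and for 18.3% of probes. The methods' t-test gave 0 genes at the study's criterion, which 5.75% of probes met, and 0 after adjustment, which 40 of all probes passed. Both irradiated groups were compared with the same 3 control rats. Within slide 1, where MASM + TBI rat 3 lay beside the control rats, the differences were 0.25 for Glul, 0.42 for Slc1a2, 0.37 for Rhbg, 0.15 for Oat, 0.29 for Lgr5, 0.92 for Rnf43 and -0.01 for Ctnnb1. Those of Axin2 (-0.17), Tbx3 (-0.21) and Lect2 (0.03) had the opposite sign there, and the adjusted p in limma was 0.319 or more for all 10 genes. This fit sets 1 MASM + TBI rat against 3 control rats, and that rat is assumed to vary like the others.

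Between MASM + TBI and TBI rats 0 of the 10 genes passed at the adjusted p, which 1.63% of probes did, and 0 passed at an unadjusted p under 0.05 (17% of probes) or at the study's criterion (7.98% of probes). No gene was without overlap between these groups, as 18.5% of probes were. The methods' t-test gave 0 genes at the study's criterion, which 4.03% of probes met, and 0 after adjustment, which 4 of all probes passed. The mean was lower with MASM for 8 genes and higher for Oat and Lect2, with a median estimate of -0.18 against 0.04 over all probes. The 95% intervals of the 10 differences reached from -1.29 for Rnf43 to 0.93 for Oat, and for Rnf43, Tbx3 and Lgr5 a 2-fold lower level with MASM lay within the interval. The mean of the 10 log2 signals, as a description of each rat, was 8.64 to 8.87 in control, 9.11 to 9.39 in TBI and 8.97 to 9.22 in MASM + TBI rats. Both irradiated groups lay above the control rats in this mean, and they overlapped with each other. Single probes did not overlap, in either direction, for 30.3% of all probes in TBI and 18.3% in MASM + TBI against control. The mean of 15 other pericentral genes was 11.80 to 11.942 in control, 11.72 to 11.95 in TBI and 11.943 to 12.07 in MASM + TBI rats. In that mean TBI and control rats overlapped.

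**Figure D1:**
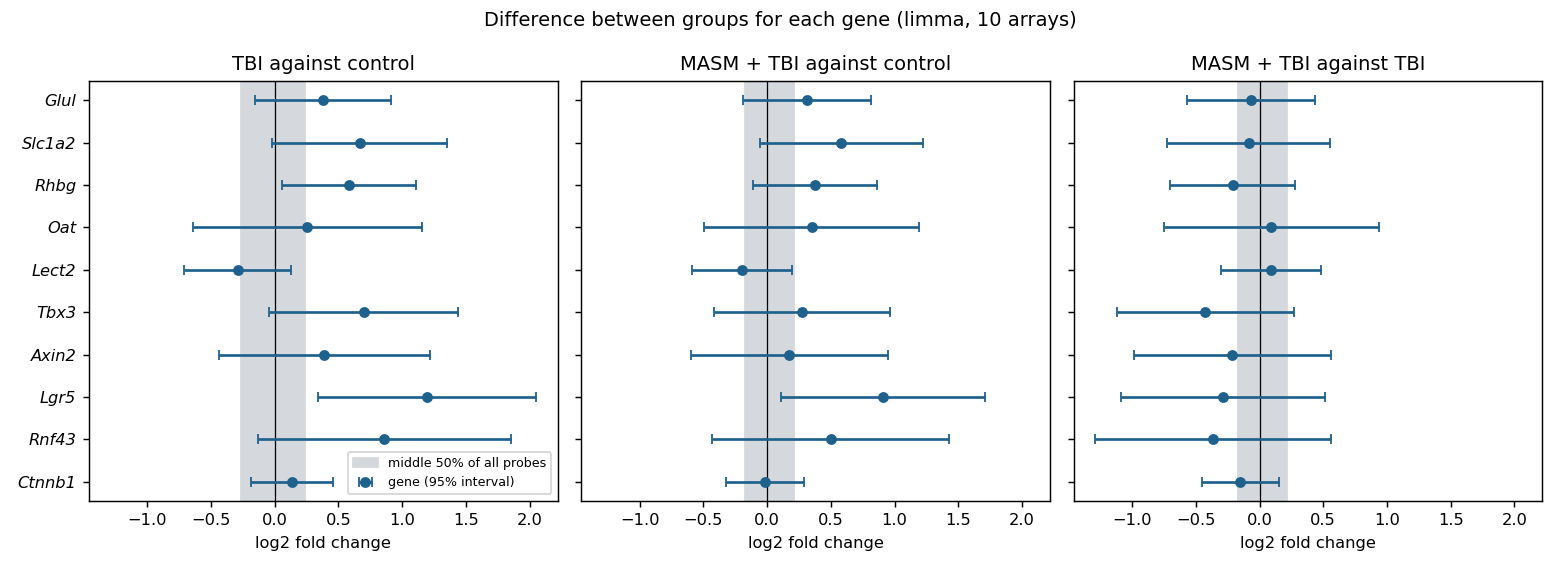
Estimated log2 fold change (x axis) of each of the 10 genes (y axis) in the 3 comparisons, from limma on the 10 arrays. Points are estimates, bars are 95% intervals, and the grey band runs from the lower to the upper quartile of all probes. In TBI against control 9 points lie right of 0, and the intervals of Lgr5 and Rhbg leave out 0.

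Glul, Slc1a2, Rhbg and Oat serve the handling of ammonia, glutamate and glutamine around the central vein. Glul is glutamine synthetase, which joins ammonia to glutamate and is the standard marker of the innermost hepatocytes. Its log2 signal was 10.73, 10.30 and 10.85 in control rats 1 to 3, 10.51, 11.48 and 11.03 in TBI rats 1 to 3, and 11.02, 10.93, 10.88 and 10.94 in MASM + TBI rats 1 to 4. TBI rat 2 was the highest of all, TBI rat 1 lay within the control range, and the MASM + TBI rats lay close together just above the highest control rat. The difference was 0.38 (SE 0.23, adjusted p = 0.369 in limma) for TBI and 0.31 (SE 0.22, adjusted p = 0.547) for MASM + TBI against control. Without TBI rat 2 the TBI estimate was 0.14, without TBI rat 1 it was 0.63 and without control rat 2 it was 0.22, and without control rat 2 the MASM + TBI estimate was 0.15. The second Glul probe ordered the rats in much the same way, with 10.14, 9.49 and 10.14 in control, 9.88, 10.94 and 10.58 in TBI, and 10.44, 10.05, 10.30 and 10.36 in MASM + TBI rats. Across the 10 rats the 2 probes had a Pearson r of 0.96 (permutation p = 6e-05, Spearman rho 0.92, permutation p = 0.00056, r = 0.84 without control rat 2 and TBI rat 2). On the second probe the MASM + TBI rats overlapped with the control rats, so the separation rested on the choice of probe.

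Slc1a2 is a glutamate transporter that feeds glutamate to glutamine synthesis in pericentral hepatocytes. Its signal was 8.64, 9.13 and 8.49 in control, 9.01, 10.16 and 9.09 in TBI, and 9.31, 9.46, 9.17 and 9.39 in MASM + TBI rats. All 4 MASM + TBI rats lay above the highest control rat, while TBI rats 1 and 3 lay just under it. The estimate was 0.67 (SE 0.30, adjusted p = 0.224 in limma) for TBI and 0.58 (SE 0.28, adjusted p = 0.348) for MASM + TBI. Without TBI rat 2, the highest of the 10, the TBI estimate was 0.30.

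Rhbg is an ammonium transporter of the hepatocyte membrane. Its signal was 8.49, 8.08 and 8.31 in control, 8.38, 9.25 and 9.01 in TBI, and 8.70, 8.40, 8.66 and 8.92 in MASM + TBI rats. TBI rats 2 and 3 were the highest, and TBI rat 1 lay among the control rats. For TBI the difference was 0.58 (SE 0.23, unadjusted p = 0.0326, adjusted p = 0.171 in limma), and without TBI rat 1 it was 0.83 with an adjusted p of 0.0468, past the threshold. With a normexp background correction, which adds an offset to the signals, the TBI difference was 0.39. For MASM + TBI against control it was 0.38 (SE 0.21, adjusted p = 0.446), and for MASM + TBI against TBI it was -0.21, with -0.46 without TBI rat 1 and -0.02 without TBI rat 2.

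Oat, ornithine aminotransferase, turns ornithine into a precursor of glutamate. Its signal was 14.20, 13.74 and 12.74 in control, 14.00, 13.44 and 14.00 in TBI, and 13.67, 13.68, 13.71 and 14.57 in MASM + TBI rats. The spread within groups was wide, with control rat 3 the lowest and MASM + TBI rat 4 the highest of all, and the groups overlapped throughout. The estimates of 0.26 for TBI (SE 0.39, adjusted p = 0.733 in limma) and 0.35 for MASM + TBI (SE 0.37, adjusted p = 0.727) became -0.15 and -0.06 without control rat 3. The second Oat probe had the same lowest and highest rats, at 7.23 and 9.30, and an r of 0.91 with the first (permutation p = 0.0012, rho 0.73, permutation p = 0.0202). Without those 2 rats r was 0.55, so the relation rested largely on them. Against control the second probe gave 0.51 for TBI (SE 0.39, adjusted p = 0.463 in limma) and 0.67 for MASM + TBI (SE 0.36, adjusted p = 0.413).

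**Figure D2:**
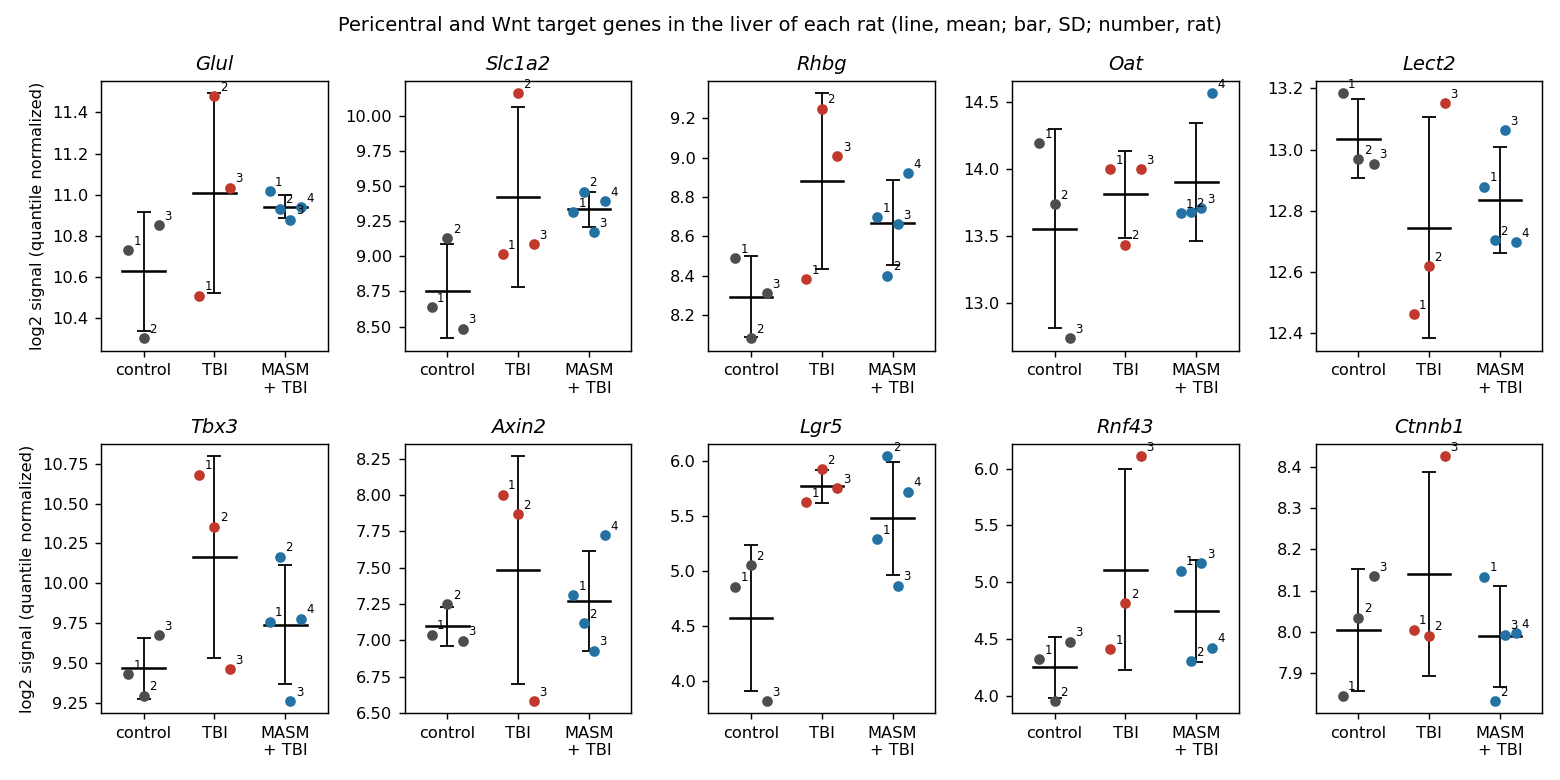
Log2 signal (y axis, quantile normalized, a scale of its own in each panel) of the 10 genes in each rat, by group (x axis), with the line at the group mean, bars of 1 SD and numbers naming the rat. The TBI rats of Lgr5 lie above all control rats, and those of Axin2 and Tbx3 split into rats 1 and 2 above rat 3.

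Lect2 and Tbx3 are targets of beta-catenin outside ammonia metabolism. Lect2 is a protein that hepatocytes secrete, and its signal was 13.18, 12.97 and 12.95 in control, 12.46, 12.62 and 13.15 in TBI, and 12.88, 12.70, 13.06 and 12.70 in MASM + TBI rats. It was the only gene with a lower mean in both irradiated groups, by -0.29 (SE 0.18, adjusted p = 0.383 in limma) in TBI and -0.20 (SE 0.17, adjusted p = 0.655) in MASM + TBI rats. The TBI estimate was -0.49 without TBI rat 3 and -0.15 without TBI rat 1, and that for MASM + TBI was -0.13 without control rat 1 and -0.05 with scaling to the 75th percentile. TBI rat 3 lay just under the highest control rat, and the groups overlapped. Tbx3 is a transcription factor of pericentral hepatocytes, and its signal was 9.43, 9.30 and 9.68 in control, 10.68, 10.36 and 9.46 in TBI, and 9.76, 10.17, 9.26 and 9.78 in MASM + TBI rats. TBI rats 1 and 2 were the highest of the 10, and TBI rat 3 lay within the control range. The difference was 0.70 (SE 0.32, adjusted p = 0.238 in limma) for TBI and 0.27 (SE 0.30, adjusted p = 0.745) for MASM + TBI against control, and -0.42 (SE 0.30, adjusted p = 0.524) for MASM + TBI against TBI (-0.17 without TBI rat 1 and -0.78 without TBI rat 3). Without TBI rat 1 the TBI estimate was 0.44, and without TBI rat 3 it was 1.05 (adjusted p = 0.0553). The MASM + TBI estimate was 0.13 without rat 2 of that group, and leaving out its rat 3 gave 0.43.

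Axin2, Lgr5 and Rnf43 act on the Wnt signal itself. Axin2 is a scaffold of the complex that destroys beta-catenin and a widely used reporter of the pathway. Its signal was 7.04, 7.25 and 6.998 in control, 8.004, 7.87 and 6.58 in TBI, and 7.31, 7.12, 6.93 and 7.72 in MASM + TBI rats. The TBI group held both the highest values and the lowest value of the 10 rats, with an SD of 0.78 against 0.14 in control rats. The estimate was 0.39 (SE 0.36, adjusted p = 0.555 in limma) for TBI and 0.17 (SE 0.34, adjusted p = 0.919) for MASM + TBI. Without TBI rat 3 the TBI estimate was 0.84 (adjusted p = 0.0678), without TBI rat 1 it was 0.13 and without TBI rat 2 it was 0.20. The MASM + TBI estimate was 0.023 without rat 4 of that group, and leaving out its rat 3 gave 0.29. With the normexp correction the estimates were 0.23 for TBI and 0.08 for MASM + TBI.

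Lgr5 is a receptor for R-spondins that strengthens the Wnt signal. Its signal was 4.86, 5.05 and 3.81 in control, 5.63, 5.93 and 5.75 in TBI, and 5.29, 6.05, 4.86 and 5.72 in MASM + TBI rats. The 3 TBI rats lay together above every control rat, and MASM + TBI rat 3 lay among the control rats. The difference was 1.20 (SE 0.37, 95% interval 0.34 to 2.05, unadjusted p = 0.0118, adjusted p = 0.104 in limma) for TBI. For MASM + TBI it was 0.91 (SE 0.35, interval 0.11 to 1.71, unadjusted p = 0.0307, adjusted p = 0.231), and between the irradiated groups it was -0.29 (SE 0.35, interval -1.09 to 0.51). Without MASM + TBI rat 3 the last was -0.08 and without MASM + TBI rat 2 it was -0.48, and with a normexp background correction -0.06. Without control rat 3, the lowest, the estimates against control were 0.82 and 0.53. The probe was dim, well above background on 2 of 3 control arrays and on all others. With that correction the TBI estimate was 0.32 (adjusted p = 0.098) and that for MASM + TBI 0.26 (adjusted p = 0.173). With the slide as a random block the TBI estimate was 1.29 (adjusted p = 0.0262), in a fit that called 16.5% of all probes in this comparison and in which slide and group still coincided.

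Rnf43 is a ubiquitin ligase that removes Wnt receptors from the cell surface. Its signal was 4.32, 3.95 and 4.48 in control, 4.41, 4.81 and 6.11 in TBI, and 5.10, 4.30, 5.17 and 4.42 in MASM + TBI rats. TBI rat 3 stood well above the rest, TBI rat 1 lay among the control rats, and the groups overlapped. The TBI estimate of 0.86 (SE 0.43, adjusted p = 0.273 in limma) was 0.36 without TBI rat 3 and 0.20 with the normexp correction. For MASM + TBI the estimate was 0.50 (SE 0.41, adjusted p = 0.626), and 0.14 with the normexp correction. Between the irradiated groups the Rnf43 estimate of -0.36 became -0.06 with it.

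Ctnnb1 encodes beta-catenin, whose activity is set by protein stability more than by its RNA. Its signal was 7.84, 8.03 and 8.13 in control, 8.01, 7.99 and 8.43 in TBI, and 8.13, 7.83, 7.99 and 7.996 in MASM + TBI rats. Rats of the 3 groups overlapped, and only TBI rat 3 lay above the control range. Ctnnb1 had the narrowest intervals of the 10 genes, -0.19 to 0.46 for TBI (estimate 0.14, adjusted p = 0.599 in limma) and -0.32 to 0.29 for MASM + TBI (estimate -0.02, adjusted p = 1). The second probe, printed on 10 spots per array, gave -0.13 (interval -0.47 to 0.20) for TBI, the opposite sign. Across the 10 rats the 2 Ctnnb1 probes had a negative r of -0.64 (permutation p = 0.0505, rho -0.54, permutation p = 0.114, r = -0.27 without TBI rat 3 and MASM + TBI rat 2). Adjusted over the 3 pairs of probes, the permutation p of r was 0.00018 for Glul, 0.0018 for Oat and 0.0505 for Ctnnb1. The sign of the Ctnnb1 difference thus depended on the probe for TBI against control, and also for MASM + TBI against TBI, where it was -0.15 and 0.0038.

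The spread between rats set what could be called. Within groups the SD was 0.17 for Ctnnb1 and 0.23 for Lect2 but 0.48 for Axin2, 0.50 for Lgr5, 0.52 for Oat and 0.58 for Rnf43. The median was 0.25 over all probes and 0.20 over those well above background on all arrays. With its own SE a gene would have needed a 1.51-fold (Ctnnb1) to 3.49-fold (Rnf43) change to pass in TBI against control, and 1.60-fold to 4.17-fold in MASM + TBI against TBI. Lgr5 would have needed 2.95-fold in the former. In whole liver, fewer cells of a type and less RNA per cell cannot be told apart, and pericentral hepatocytes are a thin layer of the lobule.

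Within a group the genes did not all single out the same rat. Of the TBI rats, rat 2 had the highest Glul, Slc1a2, Rhbg and Lgr5, rat 1 the highest Axin2, Tbx3 and Oat, and rat 3 the highest Lect2, Rnf43 and Ctnnb1. Of 45 pairs of genes across the 10 rats, 3 passed at an adjusted p under 0.05 in a permutation test of Pearson's r. The permutations exchanged rats between groups and slides. The p therefore does not separate variation between rats from differences between groups or slides. Glul and Rhbg varied together (r = 0.87, permutation p = 0.0011, adjusted p = 0.0158, rho 0.90, permutation p = 0.00092, adjusted p = 0.0261). Without control rat 2 and TBI rat 2 their r was 0.62, and in deviations from the group means it was 0.82. Tbx3 ran against Lect2 (r = -0.91, permutation p = 0.00028, adjusted p = 0.0126, rho -0.89, permutation p = 0.0012, adjusted p = 0.0261), with r = -0.79 without TBI rats 1 and 2 and -0.91 within groups. Axin2 also ran against Lect2 (r = -0.88, permutation p = 0.001, adjusted p = 0.0158, rho -0.85, permutation p = 0.0033, adjusted p = 0.0493), with r = -0.73 without TBI rats 1 and 2 and -0.88 within groups. Axin2 and Tbx3 had an r of 0.75 (permutation p = 0.0128, adjusted p = 0.144, rho 0.75, permutation p = 0.0181, adjusted p = 0.163), which was 0.34 without TBI rats 1 and 2. Within groups, other pairs reached values as large that were small over all 10 rats, such as Lect2 with Rnf43 (0.92 within groups, 0.36 over all rats), Axin2 with Rnf43 (-0.86 and -0.46) and Rnf43 with Tbx3 (-0.82 and -0.20). The within-group values carry no test. The slides held 3 or 4 arrays each, too few for values within a slide.

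**Figure D3:**
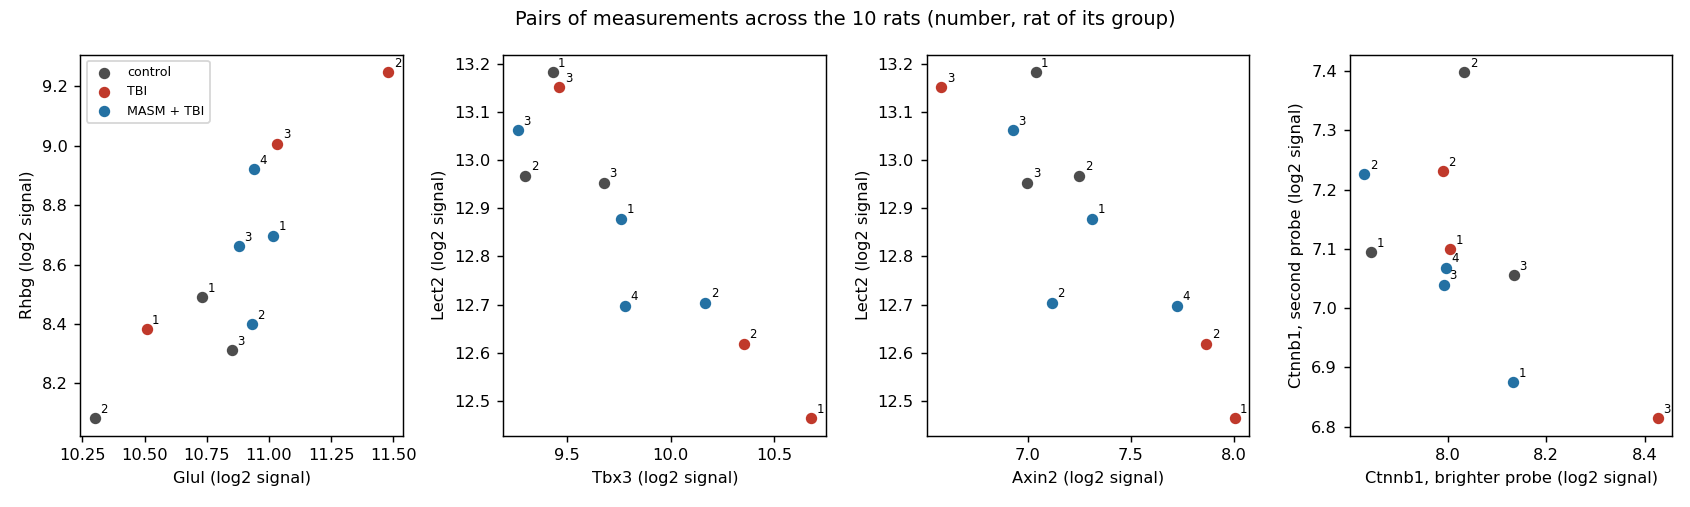
Log2 signals of pairs of measurements in the 10 rats, coloured by group, with numbers naming the rat. Rhbg increases with Glul (r = 0.87), Lect2 decreases with Tbx3 (r = -0.91) and Axin2 (r = -0.88), and the 2 probes of Ctnnb1 run in opposite directions (r = -0.64).

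Of 16 other genes of the pericentral zone, such as drug-metabolising enzymes, 15 had a probe. In TBI rats 1 rose, 1 fell and 13 did not pass in limma, against 5.63% of all probes that passed. Of the estimates 9 were above 0 and 6 below, with a median of 0.14. An unadjusted p under 0.05 in limma was held by 4 of the 15 (26.7%, against 23.5% of probes). For MASM + TBI against control 1 rose, against 2.99% of all probes that passed, with 7 estimates above 0 and 8 below. An unadjusted p under 0.05 in limma was held by 5 (33.3%, against 17% of probes). The groups did not overlap for 5 genes that were higher and 1 that was lower, against 9.35% and 8.9% of all probes. Between MASM + TBI and TBI rats 0 passed, against 1.63% of probes, and 2 held an unadjusted p under 0.05 in limma (13.3%, against 17%). Here 12 estimates were above 0 and 3 below, with a median of 0.09, where 56.9% of all probes were above 0. Avpr1a, a vasopressin receptor, rose from 11.03, 10.85 and 11.09 in control to 11.70, 11.84 and 12.15 in TBI and 12.28, 11.75, 12.03 and 11.90 in MASM + TBI rats. The change was 0.91 (SE 0.16, adjusted p = 0.0193) for TBI and 1.00 (SE 0.15, adjusted p = 0.0138) for MASM + TBI. Within slide 1, where 1 MASM + TBI rat remains, the latter was 1.04 (adjusted p = 0.141). Nr1i3, a nuclear receptor that induces drug-metabolising enzymes, fell from 8.99, 8.43 and 9.37 in control to 7.96, 7.90 and 7.97 in TBI rats, a change of -0.98 (SE 0.21, adjusted p = 0.0327, and -0.64 with the normexp correction, still past the threshold). MASM + TBI rats had 8.65, 8.51, 8.58 and 8.78 of Nr1i3, which overlapped with the control rats, and their difference from TBI rats was 0.69 (unadjusted p = 0.0067, adjusted p = 0.133 in limma). Leaving out control rat 1, control rat 3, MASM + TBI rat 1 or any TBI rat took the Nr1i3 call away (range of all 10 such fits -1.23 to -0.76), while leaving out control rat 1 or 2 took that of Avpr1a for TBI (0.78 to 1.01) and control rat 2 that for MASM + TBI (0.90 to 1.08).

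The opposite, periportal zone makes urea and glucose, and 0 of the 16 periportal genes with a probe passed in limma in any comparison. At an unadjusted p under 0.05 stood 2 of them for TBI (12.5%, against 23.5% of probes), 5 for MASM + TBI (31.2%, against 17%) and 4 between the irradiated groups (25%, against 17%), and the methods' t-test called 0. The mean of the periportal log2 signals was 12.996 to 13.15 in control, 13.01 to 13.14 in TBI and 12.97 to 13.11 in MASM + TBI rats. In this mean the 3 groups overlapped.

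Of the Wnt ligands, R-spondins and proteins that release them, 8 of 14 listed genes had a probe. Only Wnt5a passed, for TBI against control (adjusted p = 0.0496 in limma), but it was not well above background on any array, so no fold change is given. At an unadjusted p under 0.05 stood 4 of the 8 for TBI (23.5% of probes) and 1 for MASM + TBI (17% of probes), with 4 estimates above 0 and 4 below in each. Of these only Wnt4 was well above background on all arrays. Between MASM + TBI and TBI rats 3 of the 8 held an unadjusted p under 0.05 (37.5%, against 17% of probes), Wls, Wnt11 and Wnt5a. Wnt11 and Wnt5a were not well above background on any array. Wls, a carrier in Wnt release named after its values were seen, had -0.39 (unadjusted p = 0.017, adjusted p = 0.185 in limma) without overlap. Its second probe gave -0.19 with overlap. Wnt4 had 6.31, 6.31 and 6.92 in control, 5.38, 5.47 and 6.48 in TBI, and 5.57, 5.73, 5.80 and 5.93 in MASM + TBI rats, estimates of -0.74 (unadjusted p = 0.0363, adjusted p = 0.18 in limma) and -0.76 (unadjusted p = 0.025, adjusted p = 0.208) that met the study's criterion. Wnt4 was chosen after its values were seen. Rspo3, chosen for its role at the central vein after its values were seen, had 7.81, 7.76 and 7.51 in control, 8.21, 8.30 and 7.52 in TBI, and 7.86, 8.02, 7.79 and 7.92 in MASM + TBI rats, an estimate of 0.32 for TBI (adjusted p = 0.375). Of the receptors and cytoplasmic carriers of the signal, 16 of 19 had a probe, and 2 of the 16 rose in TBI rats, against 5.63% of all probes that passed in either direction. At an unadjusted p under 0.05 stood 3 (18.8%, against 23.5% of probes), and the methods' t-test called 0 after adjustment. Fzd2, a Frizzled receptor, rose from 5.81, 6.02 and 5.86 in control to 6.80, 7.90 and 7.41 in TBI and 7.49, 7.54, 6.76 and 7.31 in MASM + TBI rats. Its change was 1.47 (SE 0.29, adjusted p = 0.026) for TBI and 1.38 (SE 0.27, adjusted p = 0.0357) for MASM + TBI (0.87 within slide 1, adjusted p = 0.0676), and with the normexp correction it was 0.68 and 0.60 and no longer passed. Lrp5, the co-receptor of Frizzled, rose from 7.41, 7.49 and 7.77 in control to 8.01, 8.42 and 8.17 in TBI rats (0.64, SE 0.14, adjusted p = 0.0332, and 0.36 with the normexp correction, still past the threshold), and MASM + TBI rats had 7.70, 7.77, 7.56 and 7.77, under every TBI rat, without passing against either group. Of 6 nuclear partners of beta-catenin with a probe (9 listed), Pygo2, an adaptor of its transcription complex, rose by 0.34 (SE 0.07, adjusted p = 0.0344) in TBI rats. Its dimmer second probe gave 0.87 (adjusted p = 0.0561), and the mean of both 0.60.

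The calls of these pathway genes leaned on single rats. Leaving out any control rat, TBI rat 2 or TBI rat 3 took the Fzd2 call for TBI (1.21 to 1.76), and leaving out any control rat or MASM + TBI rat 1, 2 or 4 took that for MASM + TBI (1.29 to 1.55). That of Lrp5 was lost without control rat 1 or 2, TBI rat 2 or 3, or MASM + TBI rat 1 or 2 (0.53 to 0.75). That of Pygo2 was lost without any rat other than TBI rat 3 and MASM + TBI rat 3 (0.30 to 0.35), and that of Wnt5a without any rat other than TBI rats 1 and 2 (adjusted p up to 0.132).

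Wnt inhibitors and general Wnt target genes held 13 genes with a probe of 20 listed. In limma 0 rose while 1 fell in each irradiated group against control. Of all probes 5.63% passed for TBI and 2.99% for MASM + TBI, in either direction. An unadjusted p under 0.05 was held by 3 of the 13 for TBI (23.1%, against 23.5% of probes). For MASM + TBI it was held by 2 (15.4%, against 17% of probes). The gene that fell was Birc5, survivin, which dividing cells also express, from 7.58, 8.51 and 8.16 in control to 6.35, 6.30 and 6.16 in TBI and 6.62, 6.17, 6.42 and 6.67 in MASM + TBI rats. The change was -1.81 (SE 0.23, adjusted p = 0.0051) for TBI and -1.61 (SE 0.21, adjusted p = 0.0078) for MASM + TBI. With the normexp correction it was -0.89 and -0.84 and still passed. Both calls held with any one rat left out, and both were lost with the methods' t-test, that for MASM + TBI also with the replicate block. Within slide 1, with 1 MASM + TBI rat, the change was -1.66 (adjusted p = 0.171). Myc, a target of beta-catenin in many tissues that was chosen for mention after its values were seen, had 8.55, 9.97 and 8.99 in control, 10.37, 10.82 and 11.65 in TBI, and 10.56, 10.64, 11.26 and 9.58 in MASM + TBI rats. All TBI rats lay above the control rats, and MASM + TBI rat 4 lay within the control range. The Myc difference was 1.77 (SE 0.52, unadjusted p = 0.0083, adjusted p = 0.0878 in limma) for TBI and 1.34 (SE 0.48, unadjusted p = 0.0233, adjusted p = 0.201) for MASM + TBI, which met the study's criterion in both comparisons. Between MASM + TBI and TBI rats 0 genes of these 6 lists, the pericentral and periportal ones included, passed in limma or in the methods' t-test, while 13 of 74 (17.6%) had an unadjusted p under 0.05, against 17% of all probes.

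**Figure D4:**
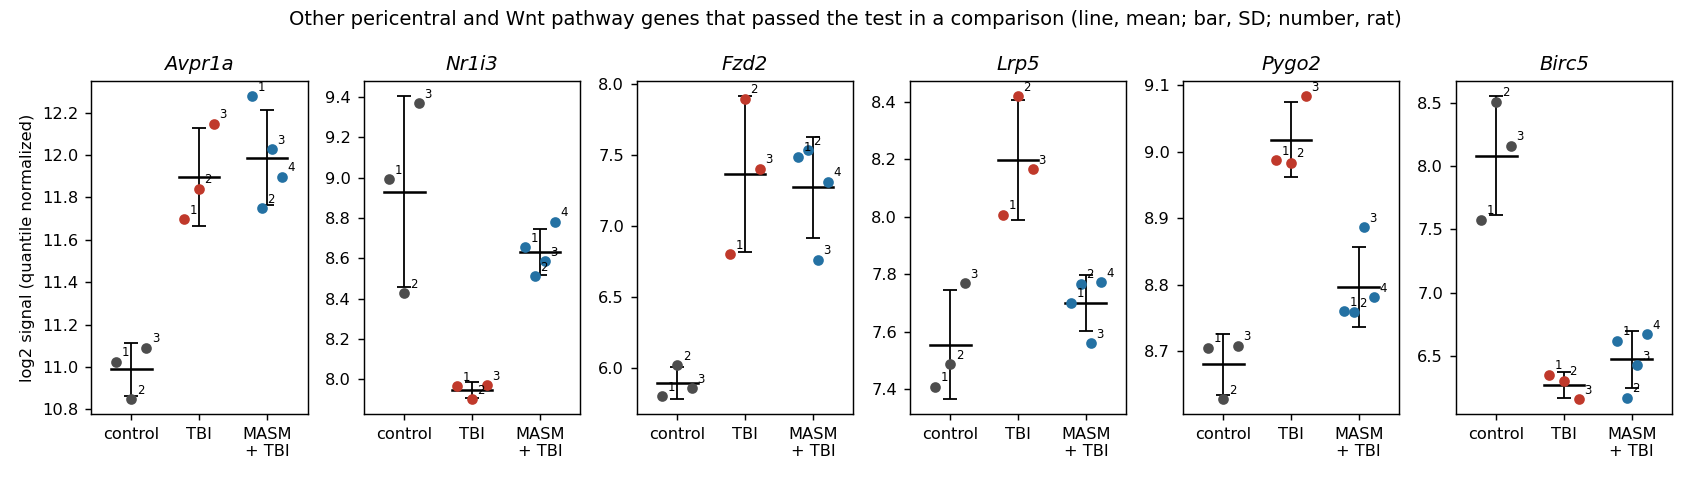
Log2 signal (y axis, a scale of its own in each panel) of 6 further pericentral and Wnt pathway genes that passed in at least 1 comparison, in each rat by group, with the line at the mean, bars of 1 SD and numbers naming the rat. Avpr1a and Fzd2 are higher and Birc5 is lower in all irradiated rats than in all control rats, and Lrp5 and Pygo2 are highest in the TBI rats.

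Markers of other liver cells were read on the same arrays. Endothelial cells, the source of the pericentral Wnt ligands, had 4 of 7 markers on the array, and 0 passed in limma, with 2 of 4 at an unadjusted p under 0.05 for TBI (23.5% of probes) and for MASM + TBI (17% of probes) against control and 0 between the irradiated groups. Lyve1, a hyaluronan receptor of sinusoidal endothelium, was higher in all rats of both irradiated groups, by 0.53 (adjusted p = 0.0819 in limma) and 0.54 (adjusted p = 0.0894), though its second probe overlapped. Kdr, a VEGF receptor, had 0.33 in TBI rats (adjusted p = 0.209), and Cdh5, a cadherin of endothelial junctions, had -0.61 in MASM + TBI rats (adjusted p = 0.12). Their mean was 9.15 to 9.61 in control, 9.42 to 9.69 in TBI and 9.03 to 9.39 in MASM + TBI rats. Of 5 stellate cell markers, Lrat, which stores retinol as esters, fell by 0.62 (adjusted p = 0.0116) in TBI and by 0.60 (adjusted p = 0.0147) in MASM + TBI rats, the latter with an adjusted p of 0.0511 without MASM + TBI rat 1 (-0.64 to -0.53 with each rat left out) and an estimate of -0.56 (adjusted p = 0.129) within slide 1. Of the other 4, estimates against control were above 0 for Rgs5, Reln and Col1a1 (below 0 on a second Col1a1 probe) and below 0 for Des in both irradiated groups, with 0.30 for Rgs5 in TBI rats (unadjusted p = 0.0247, adjusted p = 0.149 in limma). An unadjusted p under 0.05 was held by Lrat and Rgs5 for TBI (40%, against 23.5% of probes). For MASM + TBI it was held by Des, Lrat and Rgs5 (60%, against 17% of probes). Of 4 Kupffer cell markers 0 passed, with a mean of 11.34 to 12.00 in control, 11.64 to 12.44 in TBI and 11.23 to 11.66 in MASM + TBI rats, and between the irradiated groups all 4 had a lower mean with MASM (median -0.70), 3 of them at an unadjusted p under 0.05, where 17% of all probes stood. These were Cd68 (-0.89), Marco (-0.86) and Clec4f (-0.53), with adjusted p of 0.137, 0.231 and 0.234 in limma. Of 4 bile duct markers 2 had a probe, and 0 passed at the adjusted or at an unadjusted p of 0.05. Of 5 lymphocyte markers with a probe, Cd3g, Cd79b and Cd3e passed as lower in both irradiated groups against control, of which Cd3e was not well above background on any array. With the normexp correction Cd3g kept both calls, Cd79b had an adjusted p of 0.0539 for TBI and kept its call for MASM + TBI, and Cd3e lost both (adjusted p = 0.0969 and 0.103). The part of these cell types in the values of the 10 genes was not tested.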

How the data were processed

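Liver RNA of 10 rats was labelled with Cy3 and hybridised to Agilent whole-genome rat arrays, 1 rat per array. The authors deposited the intensity of each spot as Agilent Feature Extraction 10.7.3.1 computed it, with the background subtracted and without normalization across arrays. The series table that came with the scans held the same intensities (difference 0). Groups came from the labels, which give 6.5 Gy where the study's text gives 6 Gy, and slides from the file headers. No pooling of RNA is stated for the arrays, and the number of arrays limits the precision.

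Control spots (1639 of 45018) and 76 to 112 outlier spots per array were left out, 0 were saturated, and the log2 intensities were quantile normalized, as in the study's methods, with replicate spots of a probe averaged. Accessions were matched to RefSeq, which named 16968 of 41012 probes. A limma 3.58.1 model (R 4.3.3) with 1 mean per group was fitted to 40945 probes on all 10 arrays (prior degrees of freedom 1.43), with Benjamini-Hochberg adjustment over all probes and a threshold of 0.05. On simulated data for TBI against control with 40945 probes, limma recovered 42.4% of 66 probes changed by 1 on the log2 scale, 78.7% of 61 changed by 2 and 86.3% of 73 changed by 3, with 3 false calls. The simulated noise was independent and normal, without slide effects, and only these probes were changed. In the data 2305 probes passed for TBI against control, so these shares do not measure the power here. The alternatives changed the scaling (75th percentile), the background correction (normexp, offset 50), the source table, the filter on dim probes, the probe of a gene, the prior of eBayes (trended, robust), the test (the methods' t-test), the threshold (that of the study), the samples (each rat left out, or only 2 groups) and the block (slide or replicate number). Correlations used 100000 permutations of the rats, without regard to group or slide (Python 3.11.15, numpy 2.4.6, scipy 1.17.1), with matplotlib 3.10.9 for plots.

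The members and the supporting lists were chosen with earlier results of these data known. All members are named. Of each supporting list the genes that passed in a comparison are named, up to 4 per list and comparison by size. Probe positions are not given, since the array's design and the reference table rest on different assemblies.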

Additional observations from a re-analysis of the deposited data

Results flagged for a closer look

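In MASM + TBI rat 4 the brighter Oat probe stood apart from its group, at 14.57 against 13.67, 13.68 and 13.71 in the other rats. The gap to the nearest rat was 0.960 of the range of the group, above the 95% critical value of Dixon for 4 samples. It was the only one of 10 genes tested in the group of 4 to exceed it. Chance gives about 1 in 20 for each gene, and the critical value was not adjusted for the 10 genes tested. The second Oat probe was also highest in this rat, at 9.30 against 8.20 to 8.62. Without this rat the Oat estimate for MASM + TBI against TBI was -0.13 in place of 0.09.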

How the results depend on the processing

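The number of the 10 genes that passed was 0 in each comparison and stayed 0 under most alternatives. For TBI against control it was 1 with the slide as a random block (Lgr5), where 6742 of 40945 probes (16.5%) were called in place of 2305, 1 at the study's threshold (Lgr5, 12.6% of probes), and 0 to 1 when each rat was left out in turn, with Rhbg passing without TBI replicate 1 (4.87% of probes). For MASM + TBI against control it was 1 at the study's threshold (Lgr5) and 0 to 0 with each rat left out, and for MASM + TBI against TBI it was 0 to 0. The consensus correlation within a slide was -0.133. All control arrays share a slide, as do all TBI arrays, so only the MASM + TBI rats, of which 1 lay on slide 1 and 3 on slide 3, bear on slide differences within a group. Same-numbered rats had correlations of -0.125 to 0.169 in their deviations from the group means, so the numbers were not taken to pair the rats, and with a replicate block 0 genes passed in all 3 comparisons. In that replicate block the estimate of Oat for MASM + TBI against TBI was -0.13. The slide as a fixed block and the count over any probe of a gene were chosen after seeing the data, and the former gave -0.17 for Axin2, -0.21 for Tbx3 and 0.028 for Lect2 in MASM + TBI against control, each the reverse of the main sign and each resting on 1 MASM + TBI rat.

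With each rat left out, estimates crossed 0 for TBI against control for Oat (-0.15 to 0.57) and Ctnnb1 (-0.0067 to 0.21), and for MASM + TBI against control for Oat (-0.062 to 0.67) and Ctnnb1 (-0.10 to 0.049). For MASM + TBI against TBI they did so for Glul (-0.32 to 0.17), Oat (-0.13 to 0.19), Axin2 (-0.66 to 0.0463), Slc1a2 (-0.29 to 0.28), Lect2 (-0.0497 to 0.29) and Rnf43 (-0.71 to 0.14). Counts of called genes in the supporting lists moved by over 1.5 times in 99 of 384 combinations of list, comparison and alternative. Among the other genes, the calls of Avpr1a, Nr1i3, Fzd2, Lrp5, Pygo2, Wnt5a and Lrat for TBI against control were lost with only the 2 groups in the fit, with the methods' t-test and with the replicate block. Those of Pygo2 and Wnt5a were lost with the 75th percentile too, those of Fzd2 and Wnt5a with normexp and that of Pygo2 at the study's threshold. The Birc5 call was lost with the methods' t-test only. For MASM + TBI against control those of Avpr1a, Fzd2, Lrat, Birc5 and Cd79b were lost with the methods' t-test, the replicate block and the slide as a fixed block, and those of Fzd2 with normexp and Lrat with the 75th percentile too. Scaling to the 75th percentile moved the median of all probes by at most 0.0424 and raised the probes called for TBI against control from 2305 to 7458 and for MASM + TBI against TBI from 666 to 5459, while those for MASM + TBI against control went from 1225 to 815, and 0 of the 10 genes were among them. Dim probes and 3 or 4 rats per group limit Lgr5 and Rnf43 in particular.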
